A study of Mus musculus with 8 samples.

Results

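Histone-modifying and chromatin-remodelling enzymes were followed through mouse spermatid differentiation with and without the arginine methyltransferase CARM1. The set comprised every row of the deposited gene table whose symbol began with Kdm, Kmt, Setd or Smarc, or with Hdac, Kat, Chd, Brd or Sirt and a number, less 2 symbols that the selection rule left out. It held 89 of the 16349 genes of the table. There were 17 Kdm, 5 Kmt, 11 Setd, 7 Kat, 11 Hdac, 7 Sirt, 7 Brd, 11 Chd and 13 Smarc rows. Of these rows, Smarca5-ps is a processed pseudogene, whose reads may be shared with its parent gene Smarca5 and are uncertain. Chd3os is an older symbol of Rnf227, a neighbour of Chd3 that the annotation lists without exon overlap and that is no chromatin remodeller by its current name.

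The study sequenced polyadenylated RNA from 4 groups of 2 libraries each: round spermatids of wild-type (WT) mice, round spermatids labelled as a Carm1 conditional knockout (cKO), and elongating spermatids of the same 2 genotypes. All animals were on the C57BL/6 background and received no treatment, while the sources used here do not state their age or the Cre driver of the deletion. Each sample pooled cells from 8 testes, separated by size with centrifugal elutriation. The series asked which genes change when CARM1 is lost at each stage, and its title places CARM1 as a repressor of the p300, ACT and CREM-tau axis. Nothing in the labels ties the paired libraries of a group to different mice, and p-values therefore measure library-to-library spread only, possibly a technical one.

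Histones carry acetyl and methyl groups that are added by acetyltransferases (Kat genes) and lysine methyltransferases (Kmt and most Setd genes) and removed by deacetylases (Hdac and Sirt genes) and demethylases (Kdm genes). Bromodomain proteins (Brd genes) bind acetylated histones, and the ATPases and subunits of remodelling complexes (Chd and Smarc genes) slide, evict or exchange nucleosomes. In spermatids this machinery has a particular task: histones are hyperacetylated as the nucleus elongates, then replaced by transition proteins and protamines, while transcription falls silent. CARM1 methylates arginines of histones and of coactivators such as p300, and CREM with its coactivator ACT activates many genes of haploid germ cells from cAMP response elements.

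Carm1 itself (chr9:21546894-21592623, GRCm38) was reported first because it is the gene that the labels name. Its normalised read count was 1649 and 1686 in the round WT libraries against 1174 and 1343 under the KO label (log2 fold change -0.41 ± 0.05 SE, limma adjusted p = 3.8e-05). In elongating spermatids WT had 4308 and 4534 against 8157 and 7993 under the KO label (0.87 ± 0.05, limma adjusted p = 2.7e-09). The elongating libraries thus went against the loss of Carm1 reads that a knockout label implies. A count over the whole gene cannot show whether a deleted exon is missing. It therefore cannot settle the labels at either stage, and the libraries are called KO-labelled throughout.

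The libraries held 17190962 to 23526694 reads in genes. The 50 most abundant genes took 10.1% to 10.3% of the reads in round spermatids, but 31.9% in WT and 34.8% to 34.9% in KO-labelled elongating spermatids, so the choice of scaling matters for every comparison with elongating cells. All 10 spermatid markers were detected in every library and took 1.31% to 1.43% of reads in round and 8.73% to 10.6% in elongating spermatids. From round to elongating WT cells 7 of them rose and 3 fell. Under the KO label 7 rose and 0 fell in round cells, and 7 rose and 3 fell in elongating cells. There Prm2 went from 1.18e+06 and 1.19e+06 normalised reads to 2.22e+06 and 2.16e+06. Acrv1 went from 1216 and 1268 to 714 and 628, Acr from 1091 and 1069 to 692 and 699, and Spaca1 from 737 and 727 to 273 and 271. The part of this split in the results below was not tested. Markers of other testis cells moved with the groups. The summed normalised count of 13 Sertoli cell markers was 403 to 404 (WT) and 239 to 255 (KO-labelled) in round cells, then 8308 to 8347 (WT) and 5795 to 5859 (KO-labelled) in elongating cells. For 11 macrophage and leukocyte markers the sums were 135 to 164, 196 to 215, 4910 to 4952 and 2095 to 2187 in the same order. For 11 peritubular and vascular markers they were 389 to 406, 494 to 525, 2163 to 2217 and 4038 to 4139. This last list was mixed in elongating cells, where 6 markers rose and 2 fell under the KO label. Vwf went from 722 and 709 to 1705 and 1653 and Myh11 from 400 and 345 to 1003 and 1069. Pecam1 went from 50.3 and 50.5 to 11.6 and 15.1 and Cdh5 from 133 and 118 to 73.7 and 66.0. The 15 spermatocyte markers took 0.129% to 0.132% of reads in WT and 0.116% in KO-labelled round libraries. In elongating libraries they took 0.0253% in WT and 0.0221% to 0.0224% under the KO label. Their summed normalised count in elongating libraries went the other way, from 7637 to 7686 in WT to 9807 to 10141 under the KO label. The direction thus depends on the measure. Syce1, 1 of these markers, went from 4759 and 4705 to 7414 and 7267. Of these markers 3 rose and 6 fell under the KO label in round cells, and 5 rose and 7 fell in elongating cells, with 1 at 0 in each elongating KO-labelled library. Of 12 spermatogonia markers 3 rose and 0 fell under the KO label in round cells, and 2 rose and 5 fell in elongating cells. Of 8 Leydig cell markers only 4 were in the gene table. Their summed normalised count was 10.8 to 13.3 (WT) and 17.2 to 20.3 (KO-labelled) in round cells. In elongating cells it was 60.6 to 79.9 (WT) and 130 to 153 (KO-labelled). None of the somatic lists had a marker at 0 in the elongating libraries, and each took 0.0277% of the reads or less. The part of all these cells in the results below was not tested. In bulk RNA of this kind, fewer cells of a type and less RNA per cell cannot be told apart.

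Because CREM binds the palindrome TGACGTCA and its shorter form TGACG, the stretch around the start of each gene was searched on both strands in RefSeq promoters (GRCm38.p6, 250 bases before to 50 after the start). The table held 92 promoters of 68 of the 89 genes. The full palindrome was in 0 of the 92, against 1.79% of all 32851 promoters of the table, and the short site, which every full site also contains, was in 29 of 92 (31.5%), against 20.8% of all. A match is a string of letters and not evidence of binding. The 250 bases before the start are shown for the gene with the largest response in round spermatids (Sirt2), for Smarcd3, which had the largest rise in elongating spermatids, and for one that was called in opposite directions at the 2 stages (Hdac4). Each is printed 5′ to 3′ on the strand of the gene, with short sites in capitals. They lie at chr7:28766502-28766751 (plus strand), chr5:24602003-24602252 (minus strand) and chr1:92180342-92180591 (minus strand).
Sirt2: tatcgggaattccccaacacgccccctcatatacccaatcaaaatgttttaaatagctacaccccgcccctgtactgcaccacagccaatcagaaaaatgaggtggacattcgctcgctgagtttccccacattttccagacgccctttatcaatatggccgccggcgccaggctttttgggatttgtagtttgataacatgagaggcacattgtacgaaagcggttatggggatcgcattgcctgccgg
Smarcd3: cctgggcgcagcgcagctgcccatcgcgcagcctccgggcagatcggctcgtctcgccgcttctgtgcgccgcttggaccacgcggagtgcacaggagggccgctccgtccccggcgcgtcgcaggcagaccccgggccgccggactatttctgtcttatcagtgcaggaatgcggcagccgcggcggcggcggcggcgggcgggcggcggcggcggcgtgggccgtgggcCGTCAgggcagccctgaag
Hdac4: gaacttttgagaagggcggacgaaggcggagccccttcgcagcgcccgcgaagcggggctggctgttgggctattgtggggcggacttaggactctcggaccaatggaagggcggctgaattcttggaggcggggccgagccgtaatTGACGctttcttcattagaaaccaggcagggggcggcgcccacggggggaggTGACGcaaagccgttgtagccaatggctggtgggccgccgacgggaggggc
The windows of Smarcd3 and Hdac4 precede the RefSeq start of a shorter transcript and lie inside the outer bounds of their genes. Sirt2 had no short site in this window, Smarcd3 had 1 and Hdac4 had 2.

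Chromatin genes were a small share of these transcriptomes. Together the 89 took 0.738% and 0.737% of all reads in the WT and 0.726% and 0.726% in the KO-labelled round libraries. The share was lower in elongating cells, at 0.257% and 0.258% (WT) and 0.223% and 0.223% (KO-labelled). The sirtuin share was higher under the KO label, going from 0.0178% in both round WT libraries to 0.0479% and 0.0478% in the round KO-labelled ones. In elongating cells it was 0.0179% and 0.0185% (WT) and 0.0288% and 0.0279% (KO-labelled), below the round KO-labelled share. Most of the rise was that of Sirt2, with 1518 and 1626 reads in round WT against 6912 and 7810 in round KO-labelled libraries. In elongating cells 2 of 7 sirtuin genes rose and 3 fell under the KO label. Per kilobase of exon, the highest mean level over the 8 libraries was that of Chd5 (2083 normalised reads per kb), a NuRD-type remodeller with known functions in spermatid chromatin compaction. It was followed by Smarcc2 (1246 per kb), a scaffold subunit of SWI/SNF, Sirt2 (1136 per kb), Kat8 (634 per kb), the H4K16 acetyltransferase, and Brd2 (607 per kb). The lowest were Hdac8, Kdm5d, Hdac10, Sirt5 and Setd7. A gene was tested if its normalised count was at least 10 in at least 2 libraries; 88 of the 89 passed and Hdac8 did not. Just inside this limit, the second highest count was 11.6 for Hdac10, 19.1 for Kdm8, 20.4 for Sirt5 and 21.6 for Chd3os; just outside, it was 5.73 for Hdac8.

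**Figure D1:**
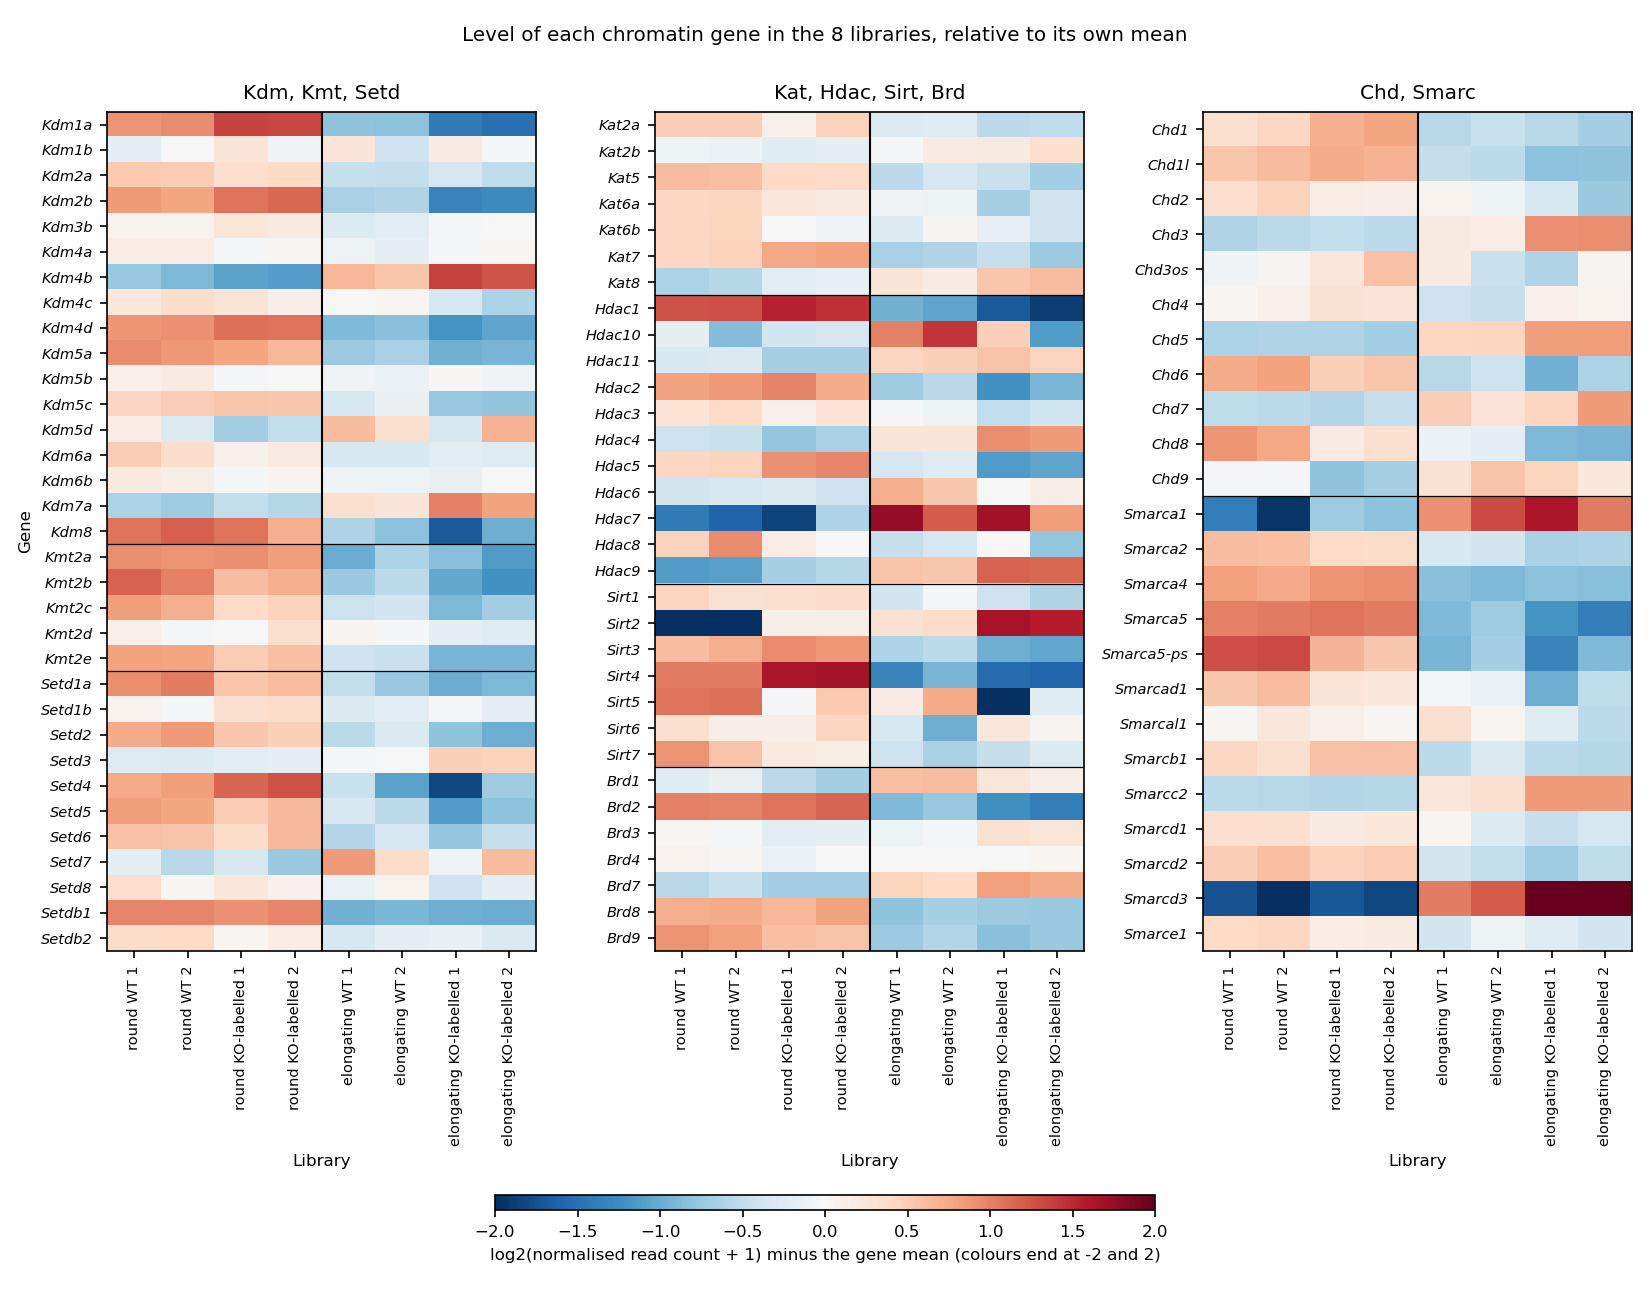
Level of each of the 89 genes in each of the 8 libraries as log2(normalised read count + 1) minus the mean of that gene, red above and blue below its mean, with genes in rows by symbol group. A black line parts round from elongating libraries; most genes are red on the left, and Smarcd3, Sirt2, Hdac7, Smarca1 and Hdac9 are among those that are red on the right.

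The comparison of KO-labelled with WT round spermatids was made at the stage where the label and the Carm1 count went the same way. Of the 88 tested genes, 14 rose and 19 fell (37.5% called), against 32% of all 15685 tested genes (19.4% higher and 12.6% lower). The median log2 fold change of the set was -0.06, against 0.03 over all genes. The 2 groups did not overlap for 67 of the 88, against 70.9% of all genes. A call is a limma adjusted p below 0.05 over all tested genes, on log2(normalised count + 1), which understates the change of genes with low counts. Sirt2 was the only one of the 88 to change more than 2-fold on this scale. Of all 15685 tested genes, 492 were called with a rise and 437 with a fall of more than 2-fold.

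Among deacetylases, 5 of 17 tested rose and 2 fell. Sirt2 (chr7:28766735-28788661), a NAD-dependent deacetylase that acts on tubulin in the cytoplasm and on histone H4 during mitosis, had 966 and 984 normalised reads in WT against 4395 and 4400 under the KO label. The groups were far apart, with a log2 fold change of 2.17 ± 0.04 (SE, limma adjusted p = 2.4e-14). Exons of Sirt2 overlap exons of Nfkbib, which lies on the opposite strand, and the library kit does not mark strand. Nfkbib went from 2004 and 1833 to 2331 and 2344, a log2 fold change of 0.29 (limma adjusted p = 7.7e-05). The next gene downstream of Sirt2, Rinl, had 4.45 to 7.33 normalised reads in the round libraries.

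Sirt4, a mitochondrial sirtuin, rose from 328 and 329 to 498 and 511 (log2 fold change 0.62 ± 0.13, limma adjusted p = 0.0019). The class IIa deacetylase Hdac5, which shuttles between cytoplasm and nucleus, rose from 465 and 475 to 661 and 689 (0.52 ± 0.08, limma adjusted p = 0.00011), and Hdac9 of the same class from 109 and 111 to 149 and 159 (0.48 ± 0.09, limma adjusted p = 0.00069). Neither gene had overlapping groups. Hdac4, the third class IIa member named here, went the other way, from 265 and 261 to 209 and 227 (-0.27 ± 0.08, limma adjusted p = 0.012). Hdac11, the class IV enzyme, fell from 1222 and 1233 to 951 and 949 (-0.37 ± 0.05, limma adjusted p = 4.3e-05). The class I enzyme Hdac1, a subunit of the Sin3 and NuRD corepressors, rose by a log2 fold change of 0.22 (limma adjusted p = 0.021).

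Of the 16 methyltransferase genes (Kmt and Setd), 1 rose and 5 fell. The 5 that fell were Kmt2b, Kmt2c, Kmt2e, Setd1a and Setd2. Kmt2b and Setd1a encode H3K4 methyltransferases of the COMPASS type that act at promoters, Kmt2c one that acts at enhancers, Setd2 is the enzyme that trimethylates H3K36 in transcribed genes, and Kmt2e encodes a relative without known methyltransferase activity. Kmt2b went from 870 and 771 normalised reads to 589 and 631 (-0.43 ± 0.09, limma adjusted p = 0.0029), and Setd1a from 763 and 814 to 584 and 613 (-0.40 ± 0.09, limma adjusted p = 0.0033). In both genes every KO-labelled library lay below every WT library. Setd1b, the paralog of Setd1a, rose from 1297 and 1214 to 1529 and 1588 (0.31 ± 0.06, limma adjusted p = 0.00068). Kmt2a and Kmt2d had log2 fold changes of -0.03 and 0.12 (limma adjusted p = 0.87 and 0.38).

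Among 17 demethylase genes, 3 rose and 2 fell. Kdm1a, which removes mono- and dimethyl groups from H3K4, rose from 1078 and 1116 to 1472 and 1470 (0.42 ± 0.06, limma adjusted p = 0.0001). Kdm2b, which recruits a Polycomb complex to CpG islands, rose from 875 and 838 to 1029 and 1084 (0.30 ± 0.07, limma adjusted p = 0.0029), and Kdm4d, an H3K9 demethylase with its main expression in testis, from 1608 and 1652 to 1866 and 1847 (0.19 ± 0.06, limma adjusted p = 0.023). All 3 had separate groups, and the rises were all below 1.5-fold. Kdm4b, a relative of Kdm4d, fell from 184 and 168 to 148 and 145 (-0.26 ± 0.08, limma adjusted p = 0.027), and Kdm5b, an H3K4 demethylase, by 0.14 on the log2 scale (limma adjusted p = 0.037).

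Among 7 acetyltransferase genes, Kat8 and Kat7 rose and Kat6b fell. Kat8 went from 1127 and 1176 to 1495 and 1556 (0.41 ± 0.05, limma adjusted p = 1.9e-05). Kat7, which acetylates H3K14 and H4 as part of the HBO1 complex, went from 1641 and 1705 to 2107 and 2166 (0.35 ± 0.07, limma adjusted p = 0.0011). Kat6b, an H3K23 acetyltransferase, went from 145 and 150 to 109 and 103 (-0.47 ± 0.15, limma adjusted p = 0.025). Of 7 bromodomain genes 4 fell: Brd1, a scaffold of acetyltransferase complexes, Brd3, a BET reader, Brd7 of the PBAF form of SWI/SNF and Brd9 of its non-canonical form. Brd1 had 452 and 484 normalised reads in WT against 374 and 334 in KO-labelled libraries (-0.40 ± 0.07, limma adjusted p = 0.00073). The fold changes of Brd3, Brd7 and Brd9 were smaller, between -0.27 and -0.19 on the log2 scale.

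The 24 remodeller rows held 3 that rose and 5 that fell. Chd8, a remodeller that binds CTCF and beta-catenin, fell from 537 and 496 to 328 and 362 (-0.58 ± 0.09, limma adjusted p = 0.00012), and Chd9 from 123 and 124 to 71.9 and 79.4 (-0.70 ± 0.14, limma adjusted p = 0.0011). Smarca2, the BRM ATPase of SWI/SNF, fell from 6355 and 6303 to 5439 and 5359 (-0.23 ± 0.04, limma adjusted p = 0.00018). Its paralog Smarca4 (BRG1) is a near neighbour of Carm1 on chromosome 9 and had 2660 and 2563 reads in WT against 2809 and 2884 in KO-labelled libraries (0.12 ± 0.05, limma adjusted p = 0.054). Smarce1, a DNA-binding SWI/SNF subunit, and Smarca5-ps also fell. Chd4, the main NuRD ATPase, rose from 3963 and 4134 to 4727 and 4643 (0.21 ± 0.04, limma adjusted p = 0.00054). Chd1, which binds trimethylated H3K4, rose by 0.39 (limma adjusted p = 0.0069). Smarca1, an ISWI ATPase, had 7.64 and 4.84 reads in WT against 12.7 and 11.8 in KO-labelled libraries (0.90 ± 0.32, limma adjusted p = 0.043), near the limit of detection.

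The rises of Sirt2, Sirt4, Hdac5, Hdac9, Kdm1a, Kat7, Kat8, Chd4 and Setd1b and the falls of Brd1, Brd3, Chd8, Chd9, Hdac11 and Smarca2 passed the test under the main and all 19 alternative settings. The other named calls rested on single libraries. The falls of Brd9 and Kdm5b, which are left out of the lists below, were each called in 16 of 20 settings. Without the first, the second round WT library or the first round KO-labelled library 19 genes were called in place of 33, and without the second round KO-labelled library 23. Kat6b, Kdm4d, Setd2, Smarca5-ps and Smarce1 lost their call without any 1 of the 4 round libraries (limma adjusted p from 0.073 to 0.24). Without the first round WT library the calls of Chd1 (limma adjusted p = 0.082), Hdac1 (0.12), Hdac4 (0.083), Kdm4b (0.22), Kmt2b (0.066), Kmt2c (0.11) and Kmt2e (0.14) were lost, and without the second those of Brd7 (0.23), Hdac1 (0.1), Hdac4 (0.062), Kdm2b (0.051), Kmt2e (0.1), Setd1a (0.055) and Smarca1 (0.28). Without the first round KO-labelled library the calls of Brd7 (limma adjusted p = 0.082), Hdac1 (0.17), Hdac4 (0.11), Kdm4b (0.079), Kmt2c (0.08), Kmt2e (0.18) and Smarca1 (0.17) were lost, and without the second those of Brd7 (0.099), Chd1 (0.074), Kdm4b (0.11) and Smarca1 (0.12). DESeq2 did not call Brd7 (adjusted p = 0.058), Kdm4b (0.091) or Smarca1 (0.13), and with total-count scaling the calls of Hdac1 (limma adjusted p = 0.14) and Kdm4d (0.23) were lost. Smarca1 was also lost without either elongating WT library (limma adjusted p = 0.051 and 0.054), with library sizes that leave out the 50 most abundant genes (0.052) and with a pseudocount of 10 (0.1).

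**Figure D2:**
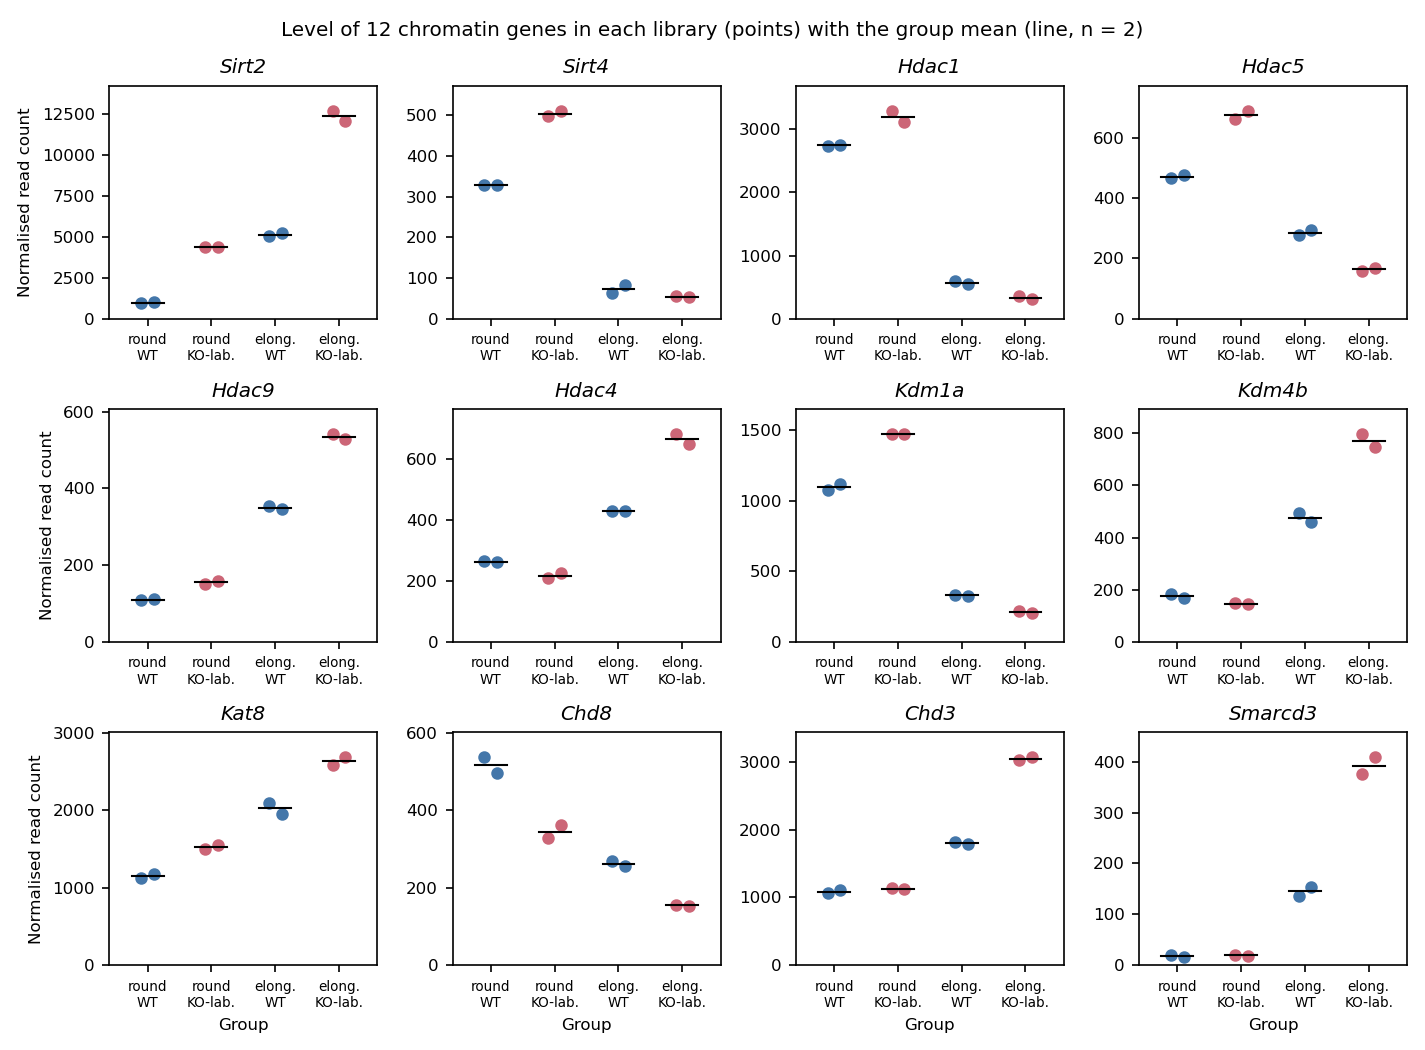
Normalised read count of 12 chromatin genes in each library (points; blue WT, red KO-labelled) with the mean of each group (line, n = 2), on axes that start at 0. Sirt2 lies at 966 to 984 in round WT and 4395 to 4400 in round KO-labelled libraries; Hdac5, Kdm1a, Hdac1 and Sirt4 are higher in KO-labelled round and lower in KO-labelled elongating libraries, and Hdac4 and Kdm4b the reverse.

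The same comparison in elongating spermatids was made between libraries in which Carm1 was higher, not lower, under the KO label. Of 88 tested genes 17 rose and 32 fell (55.7% called), against 55% of all genes (27.3% higher and 27.7% lower). The share called is near the background, and the median log2 fold change was -0.18, against -0.07 over all genes. The 2 groups did not overlap for 64 genes, against 74.7% of all genes. The direction of single genes depends on the scaling here: with total-count scaling the median of all genes was -0.61, and 3 of the 88 rose and 70 fell. Measured against these medians, the set lay 0.11 below all genes with the deposited size factors and 0.13 below with total-count scaling. Rescaling moves every gene by about the same amount, so these distances are not separate results.

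**Figure D3:**
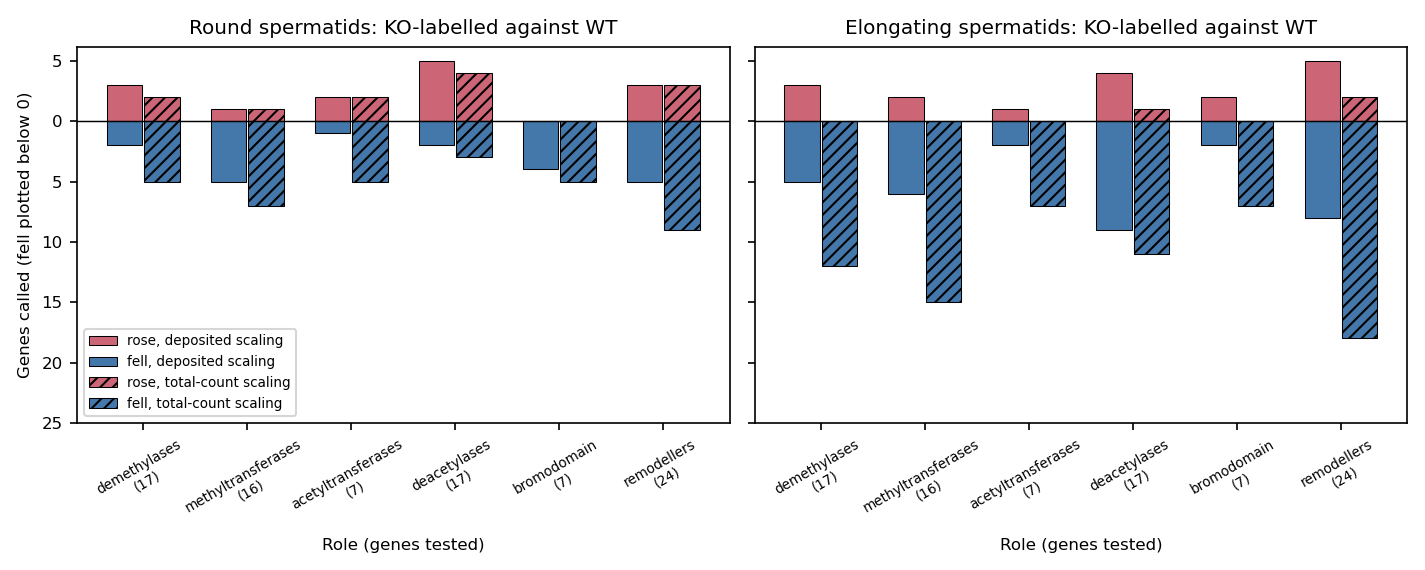
Number of genes called in each role (rose above 0, fell below 0) in KO-labelled against WT round (left) and elongating (right) spermatids, with the deposited size factors (plain bars) and total-count scaling (hatched bars); the number tested stands under each role, and remodellers include Chd3os and Smarca5-ps. In elongating spermatids total-count scaling leaves 3 genes that rose and 70 that fell, in place of 17 and 32.

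Among remodellers 5 rose and 8 fell. Smarcd3 (chr5:24590818-24624411), a SWI/SNF subunit best known from heart and muscle, had 135 and 154 normalised reads in WT against 376 and 409 in KO-labelled libraries (1.43 ± 0.18, limma adjusted p = 7.4e-06). Round libraries of both genotypes held 15.1 to 19.7 reads of it. Its exons overlap Chpf2 on the opposite strand, which had a log2 fold change of -0.21 (limma adjusted p = 0.41). Chd3, a NuRD ATPase, rose from 1822 and 1792 to 3031 and 3073 (0.76 ± 0.04, limma adjusted p = 1.4e-09). With Sirt2, these were the 3 genes whose rise in elongating spermatids passed under every setting, total-count scaling included.

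The more abundant remodeller genes Smarcc2, Chd4 and Chd5 rose with the deposited scaling. Smarcc2 went from 7449 and 7921 to 11413 and 11381 (0.57 ± 0.03, limma adjusted p = 2.6e-09), but with total-count scaling its log2 fold change was 0.01 (limma adjusted p = 0.89), which is 0.62 above the median of all genes. Chd4 rose from 2882 and 2787 to 4106 and 4021 (0.52 ± 0.04, limma adjusted p = 1.6e-08) and Chd5 from 24103 and 24261 to 32312 and 32340 (0.42 ± 0.03, limma adjusted p = 1.5e-08). With total-count scaling the log2 fold changes of both were below 0, at -0.04 for Chd4 and -0.15 for Chd5, and 0.57 and 0.47 above the median of all genes. The 8 remodeller genes that fell included Chd8, Smarcad1, Smarcal1, Smarca2 and Smarca5. Chd8 fell from 268 and 257 to 155 and 153 (-0.77 ± 0.09, limma adjusted p = 2.5e-06) and Smarca5, the SNF2H ATPase of ISWI complexes, from 367 and 411 to 293 and 258 (-0.50 ± 0.07, limma adjusted p = 3.7e-05). Smarcad1, a remodeller of silenced chromatin, fell from 142 and 134 to 73.7 and 102 (-0.66 ± 0.14, limma adjusted p = 0.001).

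Of 17 deacetylases, 4 rose and 9 fell. Sirt2 rose from 5025 and 5211 to 12701 and 12071 (1.27 ± 0.04, limma adjusted p = 2.2e-12), and Nfkbib, which shares its exon, from 8172 and 8132 to 13170 and 13089 (0.69, limma adjusted p = 1.6e-09). Hdac4 rose from 431 and 430 to 683 and 650 (0.63 ± 0.08, limma adjusted p = 5.4e-06) and Hdac9 from 353 and 346 to 541 and 528 (0.61 ± 0.09, limma adjusted p = 3.3e-05). The last 2 were not called with total-count scaling, with log2 fold changes of 0.07 for Hdac4 and 0.05 for Hdac9 (limma adjusted p = 0.43 and 0.64). Sirt6, a nuclear H3K9 and H3K56 deacetylase, had 14.2 and 8.65 reads in WT against 21.3 and 18.9 in KO-labelled libraries, and its call (0.80, limma adjusted p = 0.049) was lost in 16 of 19 alternatives.

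The class I enzymes Hdac1, Hdac2 and Hdac3, which form the catalytic core of corepressor complexes, all fell. Hdac1 went from 588 and 542 normalised reads to 351 and 304 (-0.79 ± 0.07, limma adjusted p = 1e-07), Hdac2 from 126 and 141 to 89.2 and 109 (-0.43 ± 0.12, limma adjusted p = 0.0074) and Hdac3 from 338 and 326 to 248 and 264 (-0.37 ± 0.08, limma adjusted p = 0.0017). Hdac5 fell from 277 and 293 to 159 and 168 (-0.80 ± 0.08, limma adjusted p = 3.9e-07), and Hdac6, the tubulin deacetylase, from 378 and 333 to 231 and 249 (-0.56 ± 0.10, limma adjusted p = 0.00021). The mitochondrial sirtuins fell as well, Sirt3 by 0.44 and Sirt4 by 0.43 on the log2 scale (limma adjusted p = 0.0011 and 0.01). Sirt5 had 10.3 and 15.9 reads in WT against 0 and 7.54 in KO-labelled libraries. Its log2 fold change of -2.24 became -0.69 and its call was lost (limma adjusted p = 0.18) without the KO-labelled library at 0. Hdac10, with 11.6 and 15.9 against 7.76 and 1.89 reads, was called at -1.54 and lost its call without the second KO-labelled library (-0.74, limma adjusted p = 0.25).

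Of 16 methyltransferase genes 2 rose and 6 fell. Those that fell were the 5 that also fell in round spermatids and Setd5. Kmt2e fell from 285 and 280 to 200 and 200 (-0.50 ± 0.07, limma adjusted p = 3.6e-05), Kmt2b from 231 and 267 to 188 and 166 (-0.49 ± 0.09, limma adjusted p = 0.00048) and Setd2 from 219 and 260 to 180 and 160 (-0.49 ± 0.10, limma adjusted p = 0.00061). In each of the 3, both KO-labelled libraries were below both WT libraries. Setd3, which methylates a histidine of actin and not a histone, rose from 1272 and 1295 to 1802 and 1774 (0.48 ± 0.05, limma adjusted p = 3.9e-07), and with total-count scaling it stood at -0.09. Setd1b rose by 0.15 (limma adjusted p = 0.036) and with total-count scaling it was lower by 0.41, so its direction is not settled.

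Among 17 demethylases 3 rose and 5 fell. Kdm4b rose from 495 and 459 to 797 and 747 (0.69 ± 0.08, limma adjusted p = 5.7e-06) and Kdm7a, an H3K9 and H3K27 demethylase, from 526 and 508 to 853 and 743 (0.62 ± 0.08, limma adjusted p = 1e-05). With total-count scaling Kdm4b stood at 0.13 and Kdm7a at 0.06, both without a call (limma adjusted p = 0.18 and 0.5). Kdm2b fell from 309 and 319 to 192 and 200 (-0.68 ± 0.07, limma adjusted p = 5.8e-07), and Kdm1a from 333 and 326 to 217 and 205 (-0.64 ± 0.06, limma adjusted p = 4.6e-07). Kdm5c, an X-linked H3K4 demethylase, fell from 135 and 154 to 101 and 98 (-0.54 ± 0.11, limma adjusted p = 0.00066).

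Kat8 rose in elongating spermatids as in round ones, from 2099 and 1952 to 2579 and 2684 (0.38 ± 0.05, limma adjusted p = 1.1e-05), but its log2 fold change was -0.19 with total-count scaling. Kat6a fell from 179 and 176 to 118 and 143 (-0.44 ± 0.11, limma adjusted p = 0.0031). Of the bromodomain genes Brd3 and Brd7 rose and Brd1 and Brd2 fell. Brd2, a BET reader that binds acetylated H4, fell from 1996 and 2170 to 1573 and 1414 (-0.48 ± 0.05, limma adjusted p = 1.6e-06), and Brd1 from 808 and 825 to 634 and 583 (-0.43 ± 0.07, limma adjusted p = 0.0002). Brd2 shares exon sequence with H2-DMa on the opposite strand. Brd3 rose from 3325 and 3446 to 4371 and 4187 (0.34 ± 0.04, limma adjusted p = 3.2e-06) and Brd7 by 0.36 (limma adjusted p = 0.00013), and with total-count scaling these were -0.23 and -0.21.

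The falls of 21 genes passed under every setting, among them Brd1, Brd2, Chd8, Hdac1, Hdac3, Hdac5, Hdac6, Kat6a, Kdm1a, Kdm2b, Kdm5c, Kmt2b, Kmt2e, Setd2, Setd5, Smarca2, Smarca5 and Smarcad1. Total-count scaling and library sizes without the 50 most abundant genes lower the median of all genes, to -0.61 and -0.55. A fall could hardly be lost to these scalings, whereas a rise could, so the settings do not try both directions equally. How many of all genes rose or fell under every setting was not counted. Single libraries decided some other calls. Without the first elongating WT library the calls of Setd1a (limma adjusted p = 0.1), Smarcal1 (0.07), Setd1b (0.17) and Hdac10 (0.062) were lost, and without the second those of Hdac2 (0.07), Hdac10 (0.15), Setd1b (0.063), Sirt4 (0.12), Sirt5 (0.11) and Sirt6 (0.28). Without the first elongating KO-labelled library the calls of Hdac2 (limma adjusted p = 0.059), Setd1b (0.26) and Sirt6 (0.12) were lost, besides that of Sirt5, and without the second that of Sirt6 (0.06), besides that of Hdac10. Kat2a, called at -0.26, was lost without any 1 of the 4 elongating libraries (limma adjusted p from 0.087 to 0.15). DESeq2 called 36 of the 88 genes in place of 49, and among those described above it did not call Setd1a, Kmt2c, Hdac2, Hdac10, Kat2a, Setd1b, Sirt3 (adjusted p = 0.053), Sirt4, Sirt5 or Sirt6.

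Whether the KO-labelled effect differed between the stages was tested directly as the elongating effect minus the round effect. The difference passed for 32 of 88 genes (15 upwards and 17 downwards, 36.4%), against 36.9% of all genes (19.3% and 17.5%). There were 59 genes called at one stage or the other and 23 called at both. Of the 23, 5 rose at both stages (Chd4, Hdac9, Kat8, Setd1b and Sirt2) and 8 fell at both (Brd1, Chd8, Kmt2b, Kmt2c, Kmt2e, Setd1a, Setd2 and Smarca2), while 10 were called in opposite directions. The same counts were not made over all genes, so whether they are unusual for this set cannot be said. The elongating rises of Chd4, Kat8 and Setd1b turned below 0 with total-count scaling.

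The 10 genes called in opposite directions all passed the test of the difference. Calls of opposite sign in the same fit all but fix this outcome, so it adds no support. Those that rose in round and fell in elongating spermatids were Hdac1, Hdac5, Kdm1a, Kdm2b, Kdm4d and Sirt4. The difference was -1.32 ± 0.11 for Hdac5 (log2, limma adjusted p = 2e-07), -1.06 ± 0.09 for Kdm1a (limma adjusted p = 2.2e-07), -1.05 ± 0.18 for Sirt4 (limma adjusted p = 0.00032), -1.01 ± 0.09 for Hdac1 (limma adjusted p = 8e-07) and -0.98 ± 0.09 for Kdm2b (limma adjusted p = 1.1e-06). Hdac1 and Kdm1a encode partners in corepressor complexes, and all 6 genes also fell from round to elongating WT cells. Those that fell in round and rose in elongating spermatids were Brd3, Brd7, Hdac4 and Kdm4b, with differences of 0.90 ± 0.11 for Hdac4 (limma adjusted p = 9e-06) and 0.96 ± 0.12 for Kdm4b (limma adjusted p = 1.4e-05). The differences of Hdac1, Hdac4, Hdac5, Kdm1a, Kdm2b, Kdm4b, Kdm4d and Sirt4 held under every setting, whereas those of Brd3 and Brd7 were 0.05 and 0.07 with total-count scaling and not called (limma adjusted p = 0.42 and 0.49). Total-count scaling moved the median difference of all genes to -0.49, and leaving out the 50 most abundant genes moved it to -0.44. A negative difference could therefore hardly be lost to these scalings. The opposite calls themselves were less stable for Hdac1, Hdac4, Kdm2b, Kdm4b and Kdm4d, as well as Brd7, whose round calls were lost without single libraries as given above. The elongating fall of Sirt4 was lost without the second elongating WT library (limma adjusted p = 0.12), with the 4 elongating libraries alone (0.12), with edgeR (adjusted p = 0.076) and with DESeq2 (0.16). With total-count scaling the elongating rises of Hdac4 and Kdm4b were not called (limma adjusted p = 0.43 and 0.18) and those of Brd3 and Brd7 turned below 0.

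**Figure D4:**
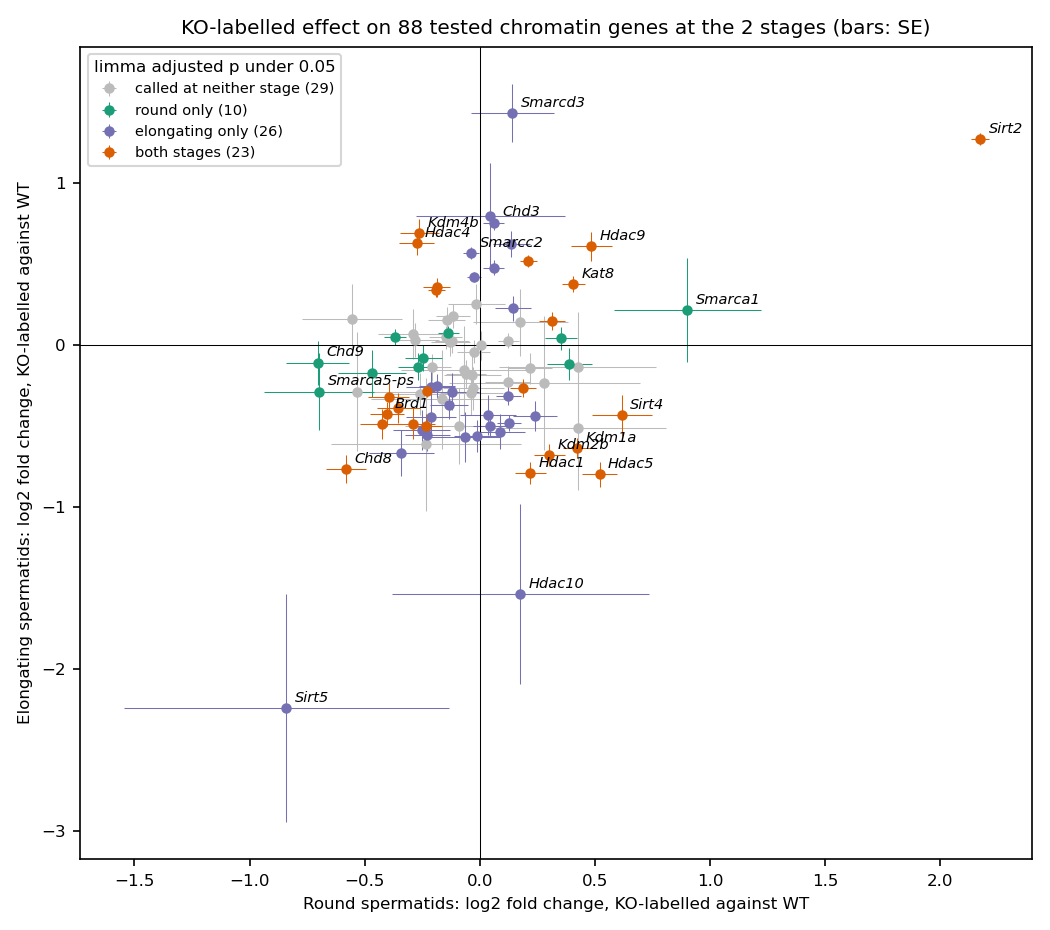
Log2 fold change of KO-labelled against WT in round (horizontal axis) and elongating spermatids (vertical axis) for the 88 tested genes, with SE bars and colours for the stage at which a gene was called. Sirt2 lies alone at 2.17 and 1.27, Smarcd3 at 0.14 and 1.43, and Hdac1, Hdac5, Kdm1a, Kdm2b and Sirt4 lie at the lower right.

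Smarcd3, Chd3 and Smarcc2 differed between the stages without an opposite call. Smarcd3 had a difference of 1.29 ± 0.25 (limma adjusted p = 0.0009) and Chd3 one of 0.70 ± 0.06 (limma adjusted p = 4.9e-07), and both held under every setting, as did Smarcc2 at 0.61 ± 0.05 (limma adjusted p = 2e-07). For Sirt2 the response was smaller in elongating cells, by 0.90 on the log2 scale (-0.90 ± 0.05, limma adjusted p = 1.1e-08). For the Kmt genes limma called 0 of 5 differences, with 2 at an unadjusted p below 0.05, and edgeR called 1 and DESeq2 0. Kmt2b was lower by 0.43 in round and by 0.49 in elongating spermatids, and Kmt2c by 0.35 and 0.39.

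Chromatin genes were compared between round and elongating WT spermatids to place these responses on the normal course of differentiation. With the deposited size factors 22 rose and 56 fell (88.6% called), against 81.9% of all genes (41.7% higher and 40.2% lower). The median log2 fold change was -0.63, against 0.01 for all genes. With total-count scaling 5 rose and 80 fell, the median of all genes was -1.42, and the set lay 0.64 below it, as it did with the deposited factors. A rescaling moves every gene by about the same amount, so this distance could hardly change and is no check on the scaling. Of the 15 spermatocyte markers 13 fell between the same WT groups, with a median log2 fold change of -2.51, and the part of remaining spermatocytes in the falls was not tested. In KO-labelled cells the counts were also 22 and 56, against 84.3% of all genes called (42.6% higher and 41.8% lower), with a median of -0.68.

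The genes that fell most in WT were Hdac1, from 2742 and 2760 in round to 588 and 542 in elongating cells (-2.28 ± 0.07, limma adjusted p = 5.7e-14), and Sirt4, from 328 and 329 to 63.2 and 83.6 (-2.16 ± 0.13, limma adjusted p = 4.2e-10). Setdb1, which trimethylates H3K9, fell from 743 and 741 to 193 and 200 (-1.91 ± 0.07, limma adjusted p = 1.3e-12), and Brd2 from 7424 and 7337 to 1996 and 2170 (-1.83 ± 0.05, limma adjusted p = 4.1e-14). Smarca5-ps and Kdm8 were also among the 6 largest falls, at -2.12 and -1.86, from much lower counts. Smarcd3 had the largest rise, from 19.1 and 15.1 to 135 and 154 (3.01 ± 0.18, limma adjusted p = 4e-10). Hdac7, a class IIa deacetylase of endothelial and lymphoid cells, rose from 6.36 and 5.45 to 65.7 and 44.7 (8.02-fold, limma adjusted p = 8.3e-06) and Smarca1 from 7.64 and 4.84 to 41.3 and 54.8 (2.77 ± 0.32, limma adjusted p = 1.1e-06). Sirt2 rose from 966 and 984 to 5025 and 5211 (2.39 ± 0.04, limma adjusted p = 2.7e-17), and its round KO-labelled counts of 4395 and 4400 lay between these 2 levels. Summed markers of Sertoli cells, leukocytes and vascular cells were higher in elongating than in round libraries, as given above, and their part in the rises of Hdac7, Smarca1 and Smarcd3 was not tested.

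**Figure D5:**
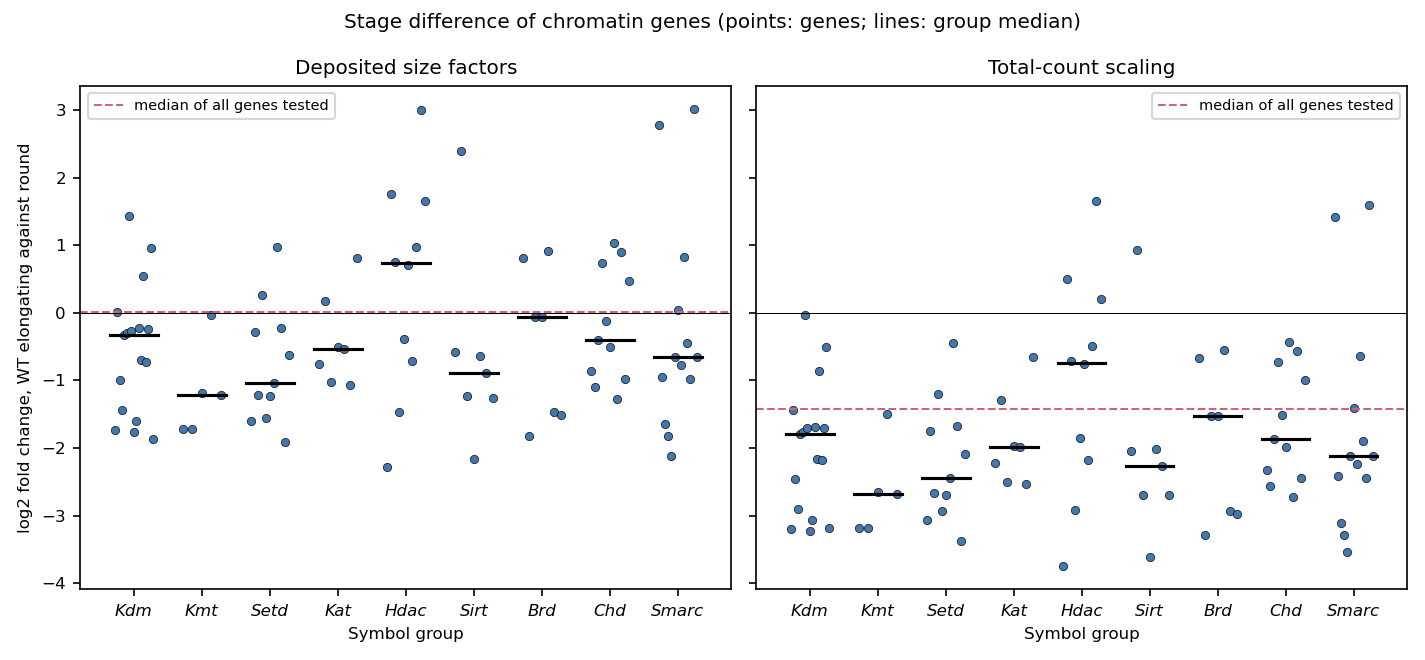
Log2 fold change of elongating against round WT spermatids for the 88 tested genes by symbol group (points, with the group median as a black line), with the deposited size factors (left) and total-count scaling (right); the red dashed line is the median of all tested genes, 0.01 and -1.42. The Hdac median is the one that lies clearly above the red line in both panels, which differ by a nearly equal shift of every gene.

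By family, the Hdac genes had a median stage change of 0.73, with 6 that rose and 4 that fell of 10; with total-count scaling it was -0.74, which is 0.69 above the median of all genes. The 6 that rose were Hdac4, Hdac6, Hdac7, Hdac9, Hdac10 and Hdac11, and the 4 that fell were the class I genes Hdac1, Hdac2 and Hdac3 and the class IIa gene Hdac5; with total-count scaling Hdac4, Hdac6 and Hdac11 were below 0, at -0.76, -0.49 and -0.71. Kmt genes had a median of -1.22, with 4 of 5 that fell, and Setd genes one of -1.04, with 2 that rose and 8 that fell of 11. Of the Kat genes Kat8 and Kat2b rose and the other 5 fell, and with total-count scaling all 7 fell. The call of Kat2b was lost without the second elongating WT library (0.08, limma adjusted p = 0.36) or either round WT library (limma adjusted p = 0.088 and 0.17), and that of Hdac10 without the second elongating (limma adjusted p = 0.067) or second round WT library (0.084). Within SWI/SNF both ATPase genes fell, Smarca4 by 1.65 and Smarca2 by 0.95 on the log2 scale, while the scaffold gene Smarcc2 rose by 0.82, which with total-count scaling became -0.65. Within the Chd genes Chd5 rose by 1.04, Chd3 by 0.74 and Chd4 fell by 0.51; with total-count scaling Chd5 and Chd3 were at -0.43 and -0.73, above the median of all genes.

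Other chromatin genes were counted for context in 8 lists of 166 tested genes in all. In round spermatids 27 rose and 31 fell, which is 34.9% called against 32% of all genes. In elongating spermatids 42 rose and 74 fell, which is 69.9% against 55%; with total-count scaling these became 11 and 137. The counts by list below are to be read against 19.4% higher and 12.6% lower of all genes in round cells and 27.3% and 27.7% in elongating cells. Cofactors of the COMPASS methyltransferases fell in 2 of 12 cases in round and 8 of 12 in elongating spermatids. Of the enzymes themselves Kmt2b, Kmt2c and Setd1a fell at both stages. Setd1b rose at both with the deposited scaling, and Kmt2a and Kmt2d were called at neither. Of 29 Polycomb genes 2 rose and 3 fell in round and 4 rose and 12 fell in elongating cells. Of 18 other lysine methyltransferases 2 rose and 6 fell, then 2 and 7. Of 31 other acetyltransferases and cofactors 7 rose and 8 fell, then 11 and 12. Deacetylase corepressors, which partner histone deacetylases, had 7 that rose and 6 that fell of 22, then 10 and 8. In elongating spermatids Sin3a rose by 1.48 (limma adjusted p = 7.3e-12), while the Sin3 subunit gene Arid4a fell by 1.40 (limma adjusted p = 2.2e-09). Of 40 other remodeller subunits 7 rose and 5 fell, then 10 and 21, with Arid1b up by 1.42 (limma adjusted p = 8.2e-10). Other demethylases had 1 rise and 1 fall of 7, then 4 and 2, and DNA methylation genes 1 rise of 7, then 1 rise and 4 falls.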

How the data were processed

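Polyadenylated RNA of 8 libraries (4 groups of 2) was prepared with a TruSeq RNA v2 kit. Per the submitters' processing notes, the tools were TopHat2 2.0.10, DESeq 1.16.0, HTSeq 0.6.0 and CASAVA 1.8.2, on mm10/GRCm38. The deposited values are a signal, counts divided by size factors; divided by the smallest nonzero value of their library they are 100.0% whole reads (tolerance 1e-06), with 17190962 to 23526694 reads per library, on which edgeR called 7319 (round) and 8136 (elongating) of all genes, against limma's 5018 and 8627. Positions come from GENCODE M21 (all 89 genes matched).

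The 15685 genes that reached 10 in 2 or more libraries (664 did not) were fitted as log2(value + 1) with limma 3.58.1 in R 4.3.3, with 4 group means over all 8 libraries (4 residual degrees of freedom), two-sided, Benjamini-Hochberg adjusted over all tested genes. This procedure was tested on simulated data. Alternatives were other scalings (total count, without the 50 most abundant genes, TMM), pseudocounts (0.5, 10), filters, edgeR 4.0.16 and DESeq2 1.42.0 on recovered reads, the 4 libraries of a comparison alone, a replicate block and each library left out, where a lone library is assumed to vary like the other groups. Named genes were the 10 largest called rises and falls of each KO-labelled comparison and the 6 of WT stages whose groups did not overlap, the 5 largest differences between stages each way, the 10 highest and 5 lowest per kb, those nearest the filter and a list with known roles in spermatids; others named were chosen after their values were seen. Members and lists were chosen with earlier results of these data known.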

Additional observations from a re-analysis of the deposited data

Results flagged for a closer look

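The KO-labelled effect differed between elongating and round spermatids for 32 of 88 tested genes, by limma's test of the difference itself. Among the named genes with the largest differences, the elongating effect exceeded the round one by 1.2933 on the log2 scale for Smarcd3, 0.9571 for Kdm4b, 0.9045 for Hdac4, 0.6963 for Chd3 and 0.6068 for Smarcc2. It fell short of the round one, with differences of -1.3192 for Hdac5, -1.0611 for Kdm1a, -1.0515 for Sirt4, -1.0073 for Hdac1 and -0.9801 for Kdm2b. The share of genes with a difference was 36.4%, against 36.9% of all genes tested.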

How the results depend on the processing

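Of 6163 values of genes named by rule under the alternatives, 5644 kept their side of the threshold, and the called ones among them kept their direction. Turns of direction in values without a call in either fit were not counted. A further 229 gained a call in either direction and 222 lost one without a turn. The other 68 were called in the main fit and turned in direction, with or without a call. The number of genes called in round spermatids was 33 and rose to 51 with edgeR on recovered reads (46.7% of all genes called, against 32% with limma); the cause was not tested. It ranged from 19 to 44 with single libraries left out. The same ranges were 42 to 50 for elongating spermatids, 26 to 36 for the difference between stages and 72 to 78 for each comparison of stages. The count for the difference, 32, rose to 63 with total-count scaling and to 54 with library sizes that leave out the 50 most abundant genes, which move the median of all genes by -0.49 and -0.44. Replicate numbers did not pair the samples (correlations of deviations from -0.0148 to 0.0312); with a replicate block 33, 48, 31, 78 and 78 genes were called, against 33, 49, 32, 78 and 78. With total-count scaling, the log2 fold change for KO-labelled against WT in elongating spermatids turned negative for Brd3 (-0.23), Brd7 (-0.21), Chd4 (-0.0444), Chd5 (-0.15), Kat8 (-0.19) and Setd1b (-0.41), and outside the naming rule also for the called rises of Setd3 (-0.09) and Kdm3b (-0.33). With total-count scaling, the log2 fold change for the difference between stages turned negative for Chd4 (-0.17), Chd5 (-0.031), Hdac11 (-0.0552) and Kat2b (-0.18). With total-count scaling, the log2 fold change for elongating against round in WT turned negative for Brd1 (-0.66), Brd7 (-0.55), Chd3 (-0.73), Chd5 (-0.43), Chd9 (-0.99), Hdac11 (-0.71), Hdac4 (-0.76), Hdac6 (-0.49), Kat2b (-1.29), Kat8 (-0.65), Kdm4b (-0.0266), Kdm7a (-0.51), Setd7 (-0.45) and Smarcc2 (-0.65). With total-count scaling, the log2 fold change for elongating against round in KO-labelled cells turned negative for Brd1 (-1.16), Brd3 (-1.48), Brd7 (-0.47), Chd3 (-0.51), Chd5 (-0.46), Chd9 (-0.86), Hdac11 (-0.77), Hdac4 (-0.33), Hdac6 (-1.51), Hdac9 (-0.15), Kat2b (-1.47), Kat8 (-1.15), Kdm7a (-0.49), Setd7 (-1.06), Sirt2 (-0.45) and Smarcc2 (-0.51). With library sizes that leave out the 50 most abundant genes, the log2 fold change for KO-labelled against WT in elongating spermatids turned negative for Brd3 (-0.16), Brd7 (-0.14), Chd5 (-0.0812), Kat8 (-0.12) and Setd1b (-0.35). With library sizes that leave out the 50 most abundant genes, the log2 fold change for the difference between stages turned negative for Chd4 (-0.10) and Kat2b (-0.11). With library sizes that leave out the 50 most abundant genes, the log2 fold change for elongating against round in WT turned negative for Brd1 (-0.22), Brd7 (-0.0981), Chd3 (-0.28), Chd9 (-0.54), Hdac11 (-0.27), Hdac4 (-0.31), Hdac6 (-0.0465), Kat2b (-0.84), Kat8 (-0.20), Kdm7a (-0.0591), Setd7 (-0.015) and Smarcc2 (-0.20). With library sizes that leave out the 50 most abundant genes, the log2 fold change for elongating against round in KO-labelled cells turned negative for Brd1 (-0.65), Brd3 (-0.97), Chd9 (-0.35), Hdac11 (-0.26), Hdac6 (-1.004), Kat2b (-0.96), Kat8 (-0.64), Setd7 (-0.57) and Smarcc2 (-0.0035). The 68 all come from the 2 scalings that lower the median of all genes in elongating cells. The limits are 2 libraries per group, counts below 20 in some groups for Smarcd3, Hdac7, Sirt5, Sirt6, Hdac10, Kdm8, Smarca1 and Smarca5-ps, among others, and unstranded reads where genes share exons.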
